A study of Mus musculus with 6 samples.

Results

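*Kcp* and 9 genes of bone morphogenetic protein (BMP) signalling were followed in the cochlear duct of *Gfi1*cre/+ and *Gfi1*+/+ mice. They were found by symbol among the 14865 genes of the deposited table, which listed each of the 10 in all 6 libraries. The 10 are the extracellular modulator *Kcp*, the ligands *Bmp2*, *Bmp4* and *Bmp6*, the receptor *Bmpr1a*, the inhibitory SMADs *Smad6* and *Smad7*, and the target genes *Id1*, *Id2* and *Id3*. They were selected on measured values of this same contrast between genotypes, so their genotype differences are a description, and where a count of them past a threshold is printed, nothing is read from it. The question put to the data was whether the BMP targets moved with *Kcp*.

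The libraries were polyA RNA of the cochlear duct from C57BL/6 mice at postnatal day 8, with 3 libraries per genotype. Each *Gfi1*+/+ library held the RNA of 2 cochleae from 1 mouse, and each *Gfi1*cre/+ library pooled 6 cochleae from 3 mice, so the spread in *Gfi1*cre/+ is one between averages. The cre allele is a knock-in that puts Cre recombinase in place of part of 1 copy of *Gfi1*, the gene of a transcription factor that hair cells need. Cre is thus driven by *Gfi1*, and recombination, which marks present or past expression, reaches immune cells such as macrophages as well as hair cells in the inner ear. The line was founded on a mix of 129S6 and C57BL/6J. The values are normalized reads, that is, read counts on a gene divided by a size factor for the library.

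The recovered reads per library came to between 13603908 and 16136022 in *Gfi1*+/+ and between 17939607 and 19359753 in *Gfi1*cre/+. *Gfi1*+/+ replicate 1 stood apart, at -44.0 on the leading principal component of all genes tested (54.3% of the variance). The other *Gfi1*+/+ libraries were at -0.30 and 2.15, and the *Gfi1*cre/+ libraries at 11.1 to 16.2. The genotypes thus did not overlap on this component, as they did not for *Kcp*. *Gfi1*+/+ replicate 1 also had the highest summed level of 10 neuron markers, 9987 normalized reads. Markers of the labelled tissue were present, with 9 of 10 hair cell markers and 9 of 10 supporting cell markers listed, and *Atoh1* and *Hes5* not listed. *Gfi1* itself measured 147, 160 and 152 normalized reads in *Gfi1*+/+ and 136, 130 and 139 in *Gfi1*cre/+. Part of the *Gfi1* transcript remains on the cre allele, so these reads do not check the genotype label. The Y-linked *Ddx3y* was listed at 0 in the 3 *Gfi1*+/+ libraries and between 232 and 485 normalized reads in the 3 *Gfi1*cre/+ libraries, and *Xist* was lower in each *Gfi1*cre/+ library. Genotype and sex of the pups therefore cannot be told apart in the differences reported here. In bulk tissue, fewer cells of a type and less RNA per cell cannot be told apart either.

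BMPs are secreted ligands that bring together type I and type II receptor kinases, after which the receptor-regulated SMADs 1, 5 and 9 are phosphorylated and enter the nucleus with SMAD4. The *Id* genes, which encode helix-loop-helix proteins that block other transcription factors from binding DNA, are among the most direct targets, and the inhibitory SMADs are targets that feed back on the pathway. KCP (kielin/chordin-like protein) is a secreted protein with cysteine-rich repeats that strengthens BMP signalling and restrains TGF-beta signalling. In the developing inner ear, BMP4 is known for its part in patterning the cochlear duct and in the formation of sensory regions.

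The sequence just upstream of the start of *Kcp* is shown because *Kcp* carried the largest genotype difference of the 10, together with the sites of *Smad6*, *Id2* and *Bmpr1a* that hold a palindrome tied to SMAD binding. They are RefSeq sequences of build GRCm38.p6, written 5′ to 3′ on the strand of the gene. Capitals mark the SMAD element GTCT or its complement AGAC in *Kcp*, the palindrome GTCTAGAC in *Smad6* and GGCGCC in the other two.
Kcp (chr6:29507953-29508202, minus strand): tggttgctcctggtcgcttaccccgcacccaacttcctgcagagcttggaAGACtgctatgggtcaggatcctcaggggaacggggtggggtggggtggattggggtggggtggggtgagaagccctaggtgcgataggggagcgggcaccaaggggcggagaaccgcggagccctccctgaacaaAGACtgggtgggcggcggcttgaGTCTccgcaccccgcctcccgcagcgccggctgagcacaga
Smad6 (chr9:64022045-64022074, minus strand): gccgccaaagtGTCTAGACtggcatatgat
Id2 (chr12:25096305-25096334, minus strand): caggccccctgGGCGCCcagcgcacactgt
Bmpr1a (chr14:34502726-34502755, minus strand): gcgcgcgcgccGGCGCCtcttgctcgcccg

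Windows were matched for 7 of the 10 genes, and the others were *Bmp2*, *Id1* and an inhibitory SMAD. In the 250 bases before the start, GTCT stood on either strand 3 times in *Kcp*, 3 times in *Bmp6*, 2 times in *Id3* and 1 time each in *Bmp4*, *Smad6* and *Id2*. Among all 32851 windows, 82.9% held it, so its presence does not set these genes apart. GGCGCC, a GC-rich element bound by BMP SMADs, was found in *Id2* and *Bmpr1a* and in 9.59% of all windows. GTCTAGAC was present in 0.213% of windows of 300 bases that run past the start, among them that of *Smad6*, where it spans the start and contains both GTCT matches. A match describes letters and not a bound site. In 4 of the 7 windows (*Bmp6*, *Bmpr1a*, *Id2* and *Id3*) the GENCODE annotation has an exon of the same gene within the 250 bases, since RefSeq places the start further downstream.

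Per kilobase of exon, the *Id* genes were the highest of the 10 and *Kcp* and *Bmp2* the lowest. The mean over 6 libraries was 4073 normalized reads per kilobase for *Id3* (range 3576 to 4322), 2420.3 for *Id2* (2096 to 2614) and 1924 for *Id1* (1773 to 2031). The *Id* genes lay between the 97.3 and 98.7 percentiles of 14388 genes on this scale. *Bmp6* was the highest ligand at 855 (760 to 927), followed by *Bmp4* at 439 (413 to 462), while *Bmp2* had 36.7 (29.5 to 45.7). *Bmpr1a* measured 381 (357 to 407) and *Smad6* 341 (313 to 390), and these neighbours overlapped in range. *Smad7* stood below them at 96.3 (82.0 to 113). *Kcp* had 48.5 (41.0 to 58.5), at the 28.0 percentile, and its range overlapped that of *Bmp2*. The other neighbours in this order did not overlap. By coding length *Kcp* fell below *Bmp2*, with 80.7 against 110 normalized reads per kilobase. *Bmpr1a* also rose above *Bmp4* by coding length, with 1492 against 806. Ranges were not computed by coding length.

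**Figure D1:**
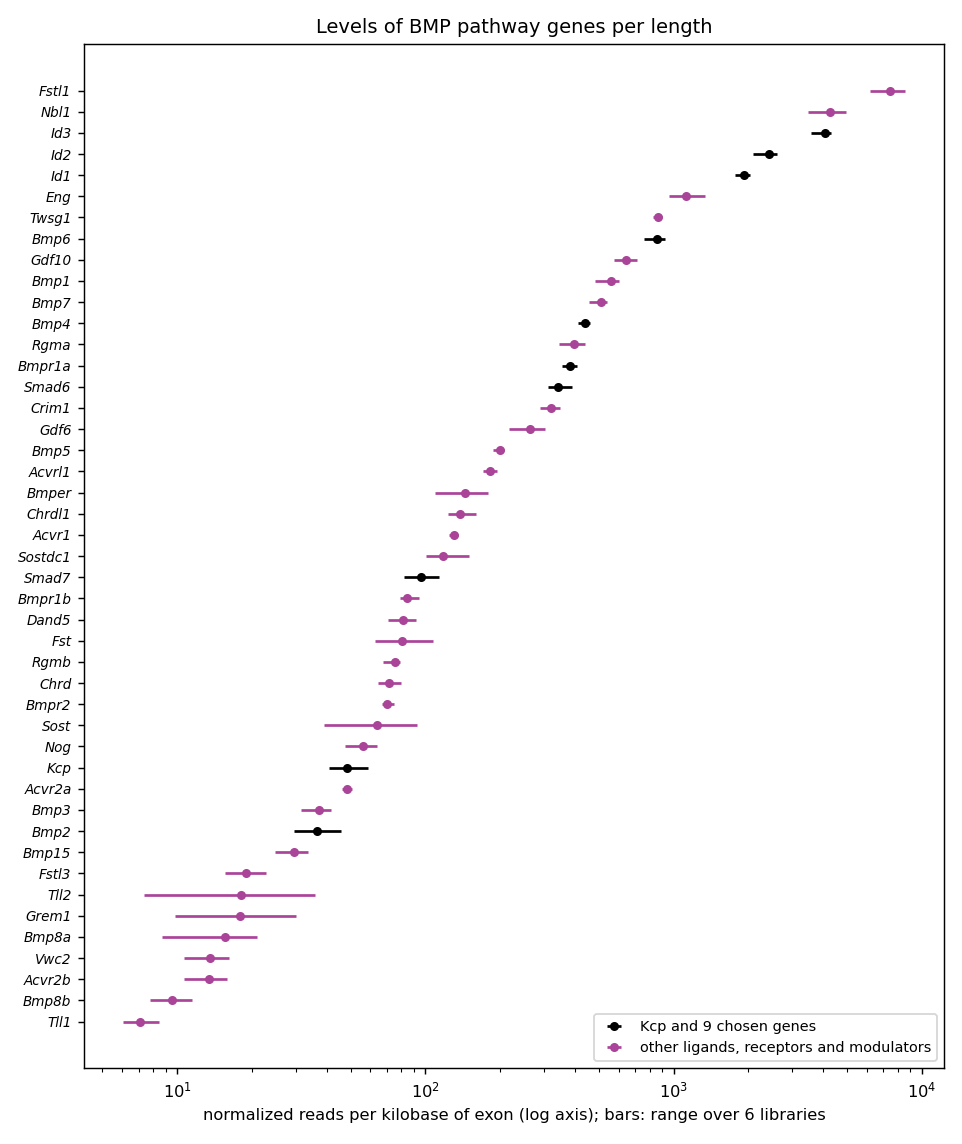
Levels of Kcp and the 9 chosen genes (black) and of other BMP ligands, receptors and modulators (purple), in normalized reads per kilobase of exon on a log axis. Points are means and bars the range over 6 libraries, and Id3, Id2 and Id1 lie near the top while Kcp and Bmp2 lie in the lower part.

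Among the other ligands, receptors and modulators, *Fstl1* and *Nbl1* had the highest levels per kilobase in the plot of levels, 7413 and 4255. *Fstl1* encodes a secreted follistatin-like glycoprotein, and *Nbl1* encodes a DAN family antagonist of BMPs. *Chrd*, which encodes the BMP antagonist chordin, had 71.1 (64.7 to 79.7), above the range of *Kcp*, and *Nog*, which encodes noggin, had 56.1 (47.3 to 63.6), which overlapped it. *Bmper* (143.9), a chordin-like modulator, and *Crim1* (319.9), a membrane protein with cysteine-rich repeats, lay higher than *Kcp*.

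*Kcp* (ENSMUSG00000059022, chr6:29473162-29507952, minus strand, GRCm38) measured 457, 421 and 401 normalized reads in *Gfi1*+/+ replicates 1 to 3 and 332, 320.45 and 343 in *Gfi1*cre/+ replicates 1 to 3. Every *Gfi1*cre/+ library was below every *Gfi1*+/+ library. The means were 426 ± 28.3 and 332 ± 11.03 (SD, n = 3 each), a change of -22.2%, and the log2 difference was -0.36 (SE 0.0749) on the log2(normalized reads + 1) scale. These values rest on 370, 402 and 380 counted reads in *Gfi1*+/+ and 381, 361 and 363 in *Gfi1*cre/+. The counted reads overlap, and the genotypes separate after division by size factors. These ran from 0.81 to 0.96 in *Gfi1*+/+ and from 1.06 to 1.15 in *Gfi1*cre/+, so sequencing depth also differed by genotype. Of the 14455 genes tested, 450 (3.11%) had a log2 difference at or below that of *Kcp*. Its exons overlap *Atp6v1fnb* over 168 bases and the antisense gene *Gm26627* over 95 bases on the opposite strand, neither of which was listed, and the strand setting of the count is not given in the sources used here.

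**Figure D2:**
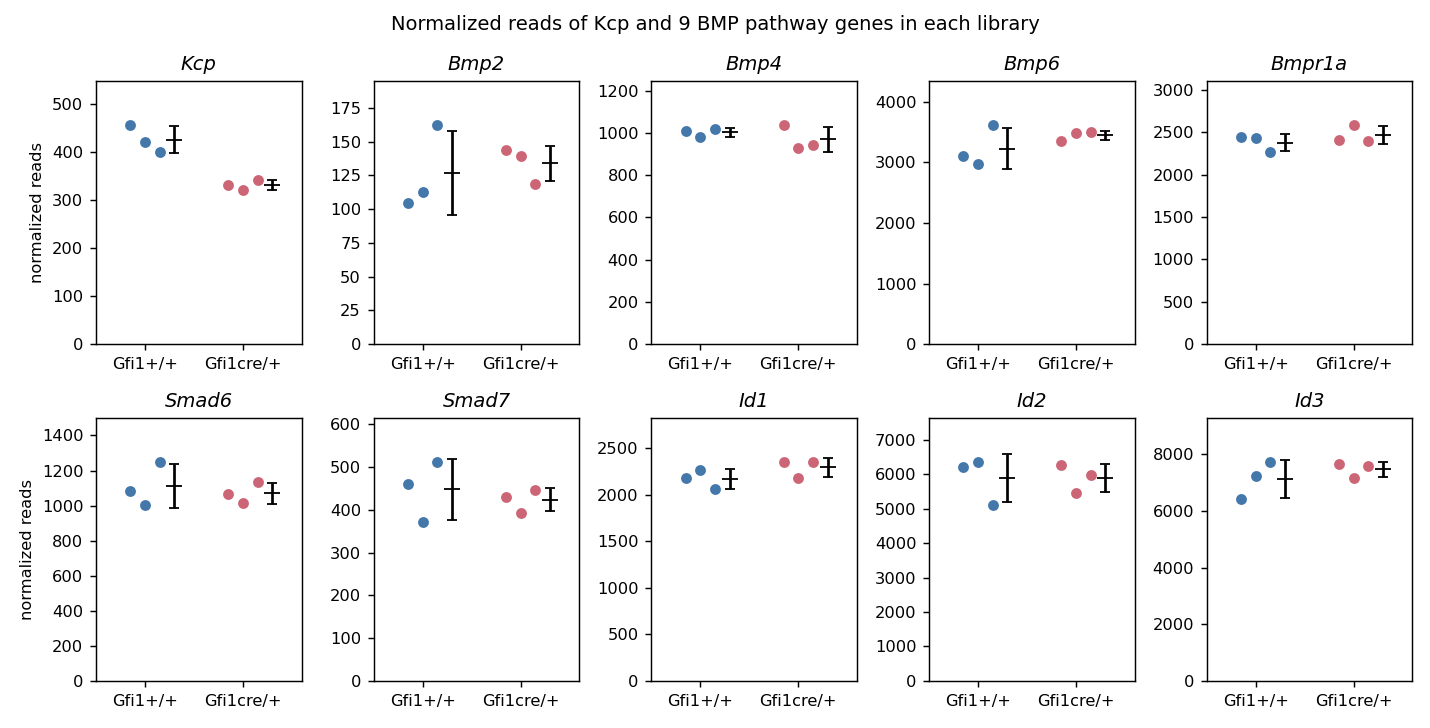
Normalized reads of each of the 10 genes in each library, 1 panel per gene with its own axis from 0. Points are libraries (blue, Gfi1+/+; red, Gfi1cre/+), and the horizontal mark and bars beside them are the mean and SD of 3 libraries; the genotypes separate in the Kcp panel alone.

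Several library properties differed alongside *Kcp*. The summed level of the 10 neuron markers, all listed and none at 0, was 9987, 3697 and 2287 normalized reads in *Gfi1*+/+ and 1824 to 2658 in *Gfi1*cre/+. All 10 had a lower mean log2 value in *Gfi1*cre/+, as *Kcp* did, with a median log2 difference of -1.003. By limma, 5 of them had an unadjusted p under 0.05, against 3.04% of all genes tested. Without *Gfi1*+/+ replicate 1, the library with the highest neuron sum, the log2 difference of *Kcp* was -0.31. The sum of the 10 bone markers, all listed and none at 0, ran from 26377 to 55999 in *Gfi1*+/+ and from 42334 to 46802 in *Gfi1*cre/+. All 10 were higher in *Gfi1*cre/+, with a median log2 difference of 0.30 and 2 at that unadjusted p. The erythroid sum, with 9 of 12 markers listed and *Hemgn* at 0 in part of the libraries, ran from 29478 to 43837 and from 38358 to 66386. All 9 were higher in *Gfi1*cre/+, with a median log2 difference of 0.60, and all 9 had that unadjusted p. At an adjusted p under 0.05 there were 0 by limma and 2 by DESeq2. The sums of hair cell markers were 9425 to 10762 and 9335 to 9536, and those of macrophage markers 8207 to 8899 and 8206 to 8727. Of 9 hair cell markers tested, 8 were lower in *Gfi1*cre/+, as *Kcp* was, with a median log2 difference of -0.15 and 0 at that unadjusted p. Of 12 macrophage markers, 7 were higher and 5 lower, with a median of 0.04 and 1 at that p. The part of neuron, bone, erythroid, hair cell and macrophage RNA in the *Kcp* difference was not tested. *Gfi1*cre/+ replicate 3 had the most *Ddx3y* and the least *Xist*. Its *Kcp* was the highest of the *Gfi1*cre/+ libraries by a margin within counting error, at 343 against 332 and 320.45 normalized reads. The part of sex was not tested, since it cannot be told apart from genotype.

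The ligands overlapped between genotypes. *Bmp2*, which induces bone and cartilage formation, measured 105, 113 and 162 normalized reads in *Gfi1*+/+ and 144, 139 and 119 in *Gfi1*cre/+. It had the widest spread of the 10 genes, 1.55-fold between its highest and lowest library, and both ends of that range were *Gfi1*+/+ libraries. Its log2 difference was 0.10 (SE 0.171), and -0.02 without *Gfi1*+/+ replicate 1. *Bmp4* (chr14:46383520-46390669, minus strand) measured 1007, 980.0 and 1021 in *Gfi1*+/+ and 1038, 928 and 944 in *Gfi1*cre/+, and its range of 1.12-fold over the libraries was the narrowest of the 10. Its log2 difference was -0.05 (SE 0.0617), and its exons share 89 bases with *Gm15217*, which was not listed. *Bmp6*, the most abundant of these ligands and also known as a regulator of hepcidin, measured 3099, 2963 and 3615 in *Gfi1*+/+ and 3354, 3479.7 and 3492 in *Gfi1*cre/+. *Gfi1*+/+ held both the lowest and the highest library of *Bmp6*, with a log2 difference of 0.10 (SE 0.0757). The annotated exons of *Bmp6* share 224 bases with *Txndc5* on the other strand, a gene listed at 7564 to 7777 normalized reads.

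*Bmpr1a*, which encodes a type I receptor for BMP2 and BMP4, measured 2443, 2427 and 2265 normalized reads in *Gfi1*+/+ and 2404, 2587 and 2402 in *Gfi1*cre/+. The genotypes overlapped, and the means of 2378 ± 98.6 and 2464 ± 106 (SD, n = 3 each) differed by less than the SD of either. The log2 difference was 0.05 (SE 0.0576). Its exons share 290 bases with the antisense gene *Gm17110*, which was not listed.

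The inhibitory SMADs, which compete with receptor-regulated SMADs and direct receptors to degradation, also overlapped between genotypes. *Smad6*, the inhibitor with the greater preference for BMP signalling, measured 1084, 1002 and 1251 normalized reads in *Gfi1*+/+ and 1068, 1013 and 1132 in *Gfi1*cre/+, with a log2 difference of -0.05 (SE 0.0856). *Smad7*, which acts on both BMP and TGF-beta receptors, measured 459, 371 and 513 in *Gfi1*+/+ and 431, 393 and 445 in *Gfi1*cre/+, with a log2 difference of -0.07 (SE 0.115). For both genes the *Gfi1*cre/+ libraries lay inside the range of the *Gfi1*+/+ libraries. *Gfi1*+/+ replicate 3 was the highest library in both, and without it the differences were 0.04 and 0.03.

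None of the *Id* genes separated the genotypes. *Id1* (chr2:152736251-152737410, plus strand) measured 2184, 2271 and 2057 normalized reads in *Gfi1*+/+ and 2346, 2180.15 and 2356 in *Gfi1*cre/+, with a log2 difference of 0.08 (SE 0.0598). *Gfi1*cre/+ replicate 2 was the library that kept the genotypes from separating, since it lay below *Gfi1*+/+ replicates 1 and 2. *Id2* (chr12:25093799-25097140, minus strand) measured 6217, 6372 and 5109.6 in *Gfi1*+/+ and 6260.3, 5472 and 5973 in *Gfi1*cre/+, with means of 5899.7 ± 689 and 5902 ± 399 (SD, n = 3 each). Its log2 difference was 0.01 (SE 0.0914), the smallest of the 10, and its sign turned when any of *Gfi1*+/+ replicate 3, *Gfi1*cre/+ replicate 1 or *Gfi1*cre/+ replicate 3 was left out. *Id3* (chr4:136143497-136145755, plus strand), the most abundant of the 10 genes, measured 6404, 7216 and 7741 in *Gfi1*+/+ and 7646, 7165 and 7598 in *Gfi1*cre/+. Its log2 difference was 0.07 (SE 0.0758), and -0.00 without *Gfi1*+/+ replicate 1, the library with its lowest value.

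With the libraries put in order of *Kcp*, the targets did not follow it across genotypes. The 3 *Gfi1*+/+ libraries held *Kcp* at 105.8% to 120.6% of its mean over the 6 libraries and the 3 *Gfi1*cre/+ libraries at 84.6% to 90.4%. *Id1* was at 92.1% to 102% of its mean in *Gfi1*+/+ and at 97.7% to 106% in *Gfi1*cre/+. *Id3* was at 87.8% of its mean in *Gfi1*+/+ replicate 1, the library with the highest *Kcp*, and at 98.2% in *Gfi1*cre/+ replicate 2, the library with the lowest. *Id2* stood at 105% and 92.7% in the same libraries, *Smad6* at 99.3% and 92.8%, and *Smad7* at 105% and 90.3%. The ends of the *Kcp* order thus differed in opposite directions for *Id3* and for *Id2*, *Smad6* and *Smad7*, while *Id1* differed little, with 97.8% and 97.7%. Each end is a single library. The low end was set by 361 counted reads of *Kcp*, against 363 and 381 in the other *Gfi1*cre/+ libraries, which is within counting error. Nothing is therefore read from these directions.

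**Figure D3:**
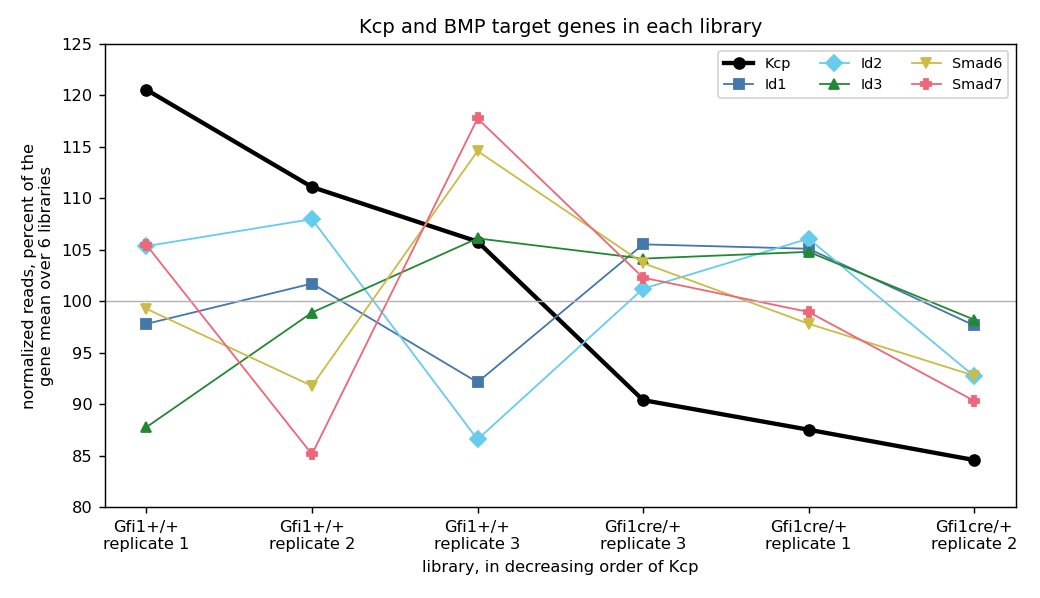
Kcp (black) and 5 target genes in the 6 libraries, as percent of the mean of each gene over the libraries, with the libraries in decreasing order of Kcp from left to right. Lines join the values of 1 gene; Kcp steps down between the genotypes, from 105.8% to 90.4%, while each target overlaps between them.

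Because *Kcp* did not overlap between the genotypes, no correlation of it with the targets over the 6 libraries is given. A correlation within a genotype would rest on 3 libraries, which are too few. Within *Gfi1*+/+, *Id3* ran opposite to *Kcp*, *Id1* and *Id2* were highest in replicate 2 and lowest in replicate 3, and *Smad6* and *Smad7* were highest in replicate 3 and lowest in replicate 2. Within *Gfi1*cre/+, *Id1*, *Smad6* and *Smad7* had the same order as *Kcp*, and replicate 2 was the lowest of the 3 libraries for *Kcp* and for each of the 5 targets. The orders as measured therefore differed between the genotypes. *Kcp* rested on 370, 402 and 380 counted reads in *Gfi1*+/+ replicates 1 to 3 and on 381, 361 and 363 in *Gfi1*cre/+ replicates 1 to 3. Its order within *Gfi1*cre/+ is thus within counting error. The order within *Gfi1*+/+ rests on as few reads and is uncertain too. Nothing further is read from these orders or from their difference between the genotypes.

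Of the 10 genes, 6 were higher and 4 were lower in *Gfi1*cre/+, with a median log2 difference of 0.03, beside -0.00 over all 14455 genes tested (7218 higher and 7237 lower). By limma with Benjamini-Hochberg adjustment, 0 of the 10 had an adjusted p under 0.05, where the share over all genes tested was 0.0277% by limma. The count of the 10 was also 0 by edgeR, which called 4 of all genes, and by DESeq2, which called 10 of all genes. At an unadjusted p under 0.05 the count was 1, *Kcp*, against 3.04% of all genes (1.02% higher and 2.02% lower in *Gfi1*cre/+). Again *Kcp* alone had no overlap between genotypes, against 7.52% of all genes. Since this contrast chose the genes, nothing is read from these counts. The SD of the log2 values was larger in *Gfi1*+/+ for 8 of the 10 genes and for 71.2% of all genes tested. *Gfi1*+/+ replicate 3 was the highest library for 5 of the 10 (*Bmp2*, *Bmp6*, *Smad6*, *Smad7* and *Id3*) and the lowest for 3 (*Bmpr1a*, *Id1* and *Id2*).

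The rest of the BMP pathway was followed in lists of 64 further genes, of which 55 were listed and 54 tested. In *Gfi1*cre/+, 35 were higher and 19 lower, with a median log2 difference of 0.04. The count with an adjusted p under 0.05 was 0 by limma with Benjamini-Hochberg adjustment, and also by edgeR and DESeq2 on the recovered reads. At an unadjusted p under 0.05, which is what called means for these lists, there were 2 (3.70%, against 3.04% of all genes) by limma, *Grem1* higher and *Gata3* lower, and 6 (11.1%, against 7.52%) did not overlap between genotypes.

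Extracellular modulators, the class of *Kcp*, held the widest differences of these lists. Of 21 named, 18 were tested, 11 higher and 7 lower with a median of 0.01. *Grem1*, which encodes the BMP antagonist gremlin 1, measured 56.8, 40.8 and 65.4 normalized reads in *Gfi1*+/+ and 74.0, 84.3 and 124.55 in *Gfi1*cre/+. All *Gfi1*cre/+ libraries were higher, with a log2 difference of 0.77 (SE 0.241, unadjusted p = 0.0107, adjusted p = 0.999 by limma). It had few reads, and it did not pass the adjustment. *Chrd* (-0.06), *Nog* (0.01), *Bmper* (0.08), *Crim1* (0.01), *Fstl1* (-0.00) and *Nbl1* (0.16) had small log2 differences that did not pass the test. *Tll2*, a tolloid-like protease gene, *Sost*, which encodes sclerostin, and the ligand gene *Bmp8a* were chosen after their values were seen, because their log2 differences of -0.47 (SE 0.482), 0.51 (SE 0.291) and 0.39 (SE 0.333) were larger in size than that of *Kcp*. All of them overlapped between genotypes, and none was called.

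**Figure D4:**
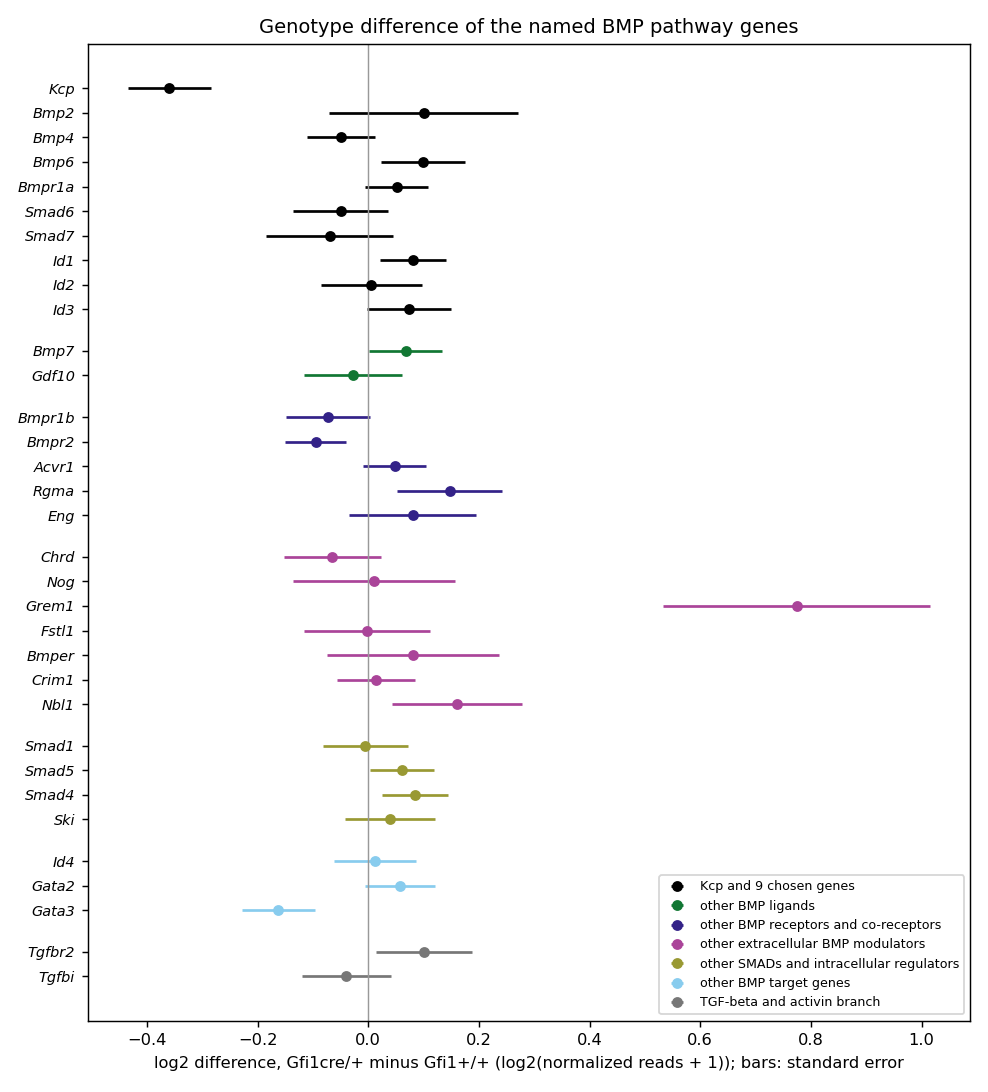
Log2 difference in normalized reads (Gfi1cre/+ minus Gfi1+/+, on log2(normalized reads + 1)) of Kcp and the 9 chosen genes (black) and of named genes of 6 further lists (colours). Points are differences and bars the standard error of the fit; Kcp is at -0.36 and Grem1 at 0.77, most others lie within 0.10 of 0, and Tll2 (-0.47), Sost (0.51) and Bmp8a (0.39) are not plotted.

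The other ligands were tested for 8 of 12 genes, 5 higher and 3 lower with a median of 0.04, and none was called. *Gdf10*, the most abundant of these per kilobase (645), had a log2 difference of -0.03, and *Bmp7* (510.0 per kilobase) had 0.07. Of 9 receptors and co-receptors, 7 were higher and 2 lower with a median of 0.05, and none was called. *Bmpr2*, the type II BMP receptor, measured 1238, 1315 and 1349 normalized reads in *Gfi1*+/+ and 1216, 1197 and 1238 in *Gfi1*cre/+. The genotypes did not overlap, though the nearest libraries differed by less than 1 normalized read, and the log2 difference was -0.10 (SE 0.0555). *Acvr1*, a further type I receptor, ran from 602 to 626 and from 627 to 651, with a difference of 0.05, and the type I receptor gene *Bmpr1b* had -0.07. *Eng*, an endothelial co-receptor, and *Rgma*, a co-receptor of the repulsive guidance family, were the most abundant receptors per kilobase, 1126 and 397, with differences of 0.08 and 0.15.

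Among 9 SMADs and intracellular regulators, 5 were higher and 4 lower with a median of 0.04, and none was called. The receptor-regulated *Smad1* and *Smad5* had log2 differences of -0.01 and 0.06, the common mediator *Smad4* had 0.08, and the corepressor gene *Ski*, the most abundant of them at 689.7 per kilobase, had 0.04. Of 10 further target genes tested, 7 were higher and 3 lower with a median of 0.07. *Gata3*, which encodes a transcription factor required for inner ear development, measured 3106, 3259 and 2981 normalized reads in *Gfi1*+/+ and 2977, 2794 and 2587 in *Gfi1*cre/+. All *Gfi1*cre/+ libraries were lower, narrowly so at 2976.55 against 2980.93 for the nearest pair, with a log2 difference of -0.16 (SE 0.0660, unadjusted p = 0.0360, adjusted p = 0.999 by limma). Its family member *Gata2* had 0.06, and *Id4*, the remaining *Id* gene, had 0.01. In the TGF-beta and activin branch, which KCP is known to restrain, 14 of 16 genes were tested, 9 higher and 5 lower with a median of 0.03. None of them was called and none separated the genotypes. The most abundant were *Tgfbi*, a TGF-beta induced matrix protein gene (-0.04), and the receptor gene *Tgfbr2* (0.10).

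The genes whose pattern over the 6 libraries was most like that of *Kcp* were *Gm6304*, *Meaf6*, *Zscan12*, *Evl* and *Orc4*, with Pearson r between 0.969 and 0.981 among the 10364 tested genes whose mean reached 200 normalized reads. No BMP pathway gene was among these 5, but 5 places among 10364 genes leave little room for any list. Nothing is therefore read from that absence. The 6 libraries share their size factors and their split by genotype, so r is a description of likeness, and each of the 5 was lower in *Gfi1*cre/+, with log2 differences from -0.22 to -0.06.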

How the data were processed

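The authors sequenced polyA RNA (TruSeq), used TopHat for alignment to mm10 and HTSeq for counting unique alignments per gene, and required 40 reads for a gene to be listed. Software versions, annotation and strand setting are not given in the sources used here. The deposited signal is named quantile-normalized in the methods, but 100% of the values in each library were whole multiples of 1 step (tolerance 0.0051), so the deposited signal is a read count over a size factor. It was used as deposited. A count of 0 allows up to 3 reads, or 2.61 to 3.70 normalized reads, for counting error only.

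Genes with at least 40 normalized reads in 1 library (14455) were fitted on log2(value + 1) with limma 3.58.1 (R 4.3.3, eBayes with a trend, genotype only, two-sided), with Benjamini-Hochberg adjustment over all genes tested, because the deposited unit is not a raw count. The fit was tested on simulated counts with planted differences larger than that of *Kcp* and the same spread in both genotypes. That simulation therefore does not cover a difference as small as that of *Kcp* or the unequal spread of these libraries. GENCODE M21 (GRCm38) gave positions and lengths for 14791 of 14865 identifiers. No label says which libraries share a litter, so p-values measure the spread between these libraries.

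The 10 genes and all lists were chosen with earlier results of these data known. Named besides the 10 were genes of each list with an unadjusted p under 0.05, the 2 highest per kilobase in each list, a few pathway genes fixed by name, and the 5 genes most like *Kcp*. A pathway gene left out of the lists is not reported here. Alternatives were other pseudocounts (0.1 and 10), other minima, no trend, robust variances, median centring, quantile normalization, TMM scaling, edgeR 4.0.16 and DESeq2 1.42.0 on recovered reads, the replicate block, coding length, and each library left out.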

Additional observations from a re-analysis of the deposited data

How the results depend on the processing

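The log2 difference of *Kcp* lay between -0.36 and -0.34 under every alternative that kept all libraries, and between -0.40 and -0.31 with 1 library left out. The sign turned under some alternative for 5 of the 10 genes (*Bmp2*, *Smad6*, *Smad7*, *Id2* and *Id3*). Of 179 values, 0 moved by over 1 SD within genotypes. Leaving out 1 library cannot move a value that far, and several settings change only the variance or the genes tested. Nothing is therefore read from this count. The median over the 10 was -0.01 to 0.04 with 1 library left out, and it was not computed at a mean of at least 200, where *Bmp2* was not tested. *Kcp* ranked 9 of 10 by exon length and 10 by coding length.

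Genes with an adjusted p under 0.05 (limma, Benjamini-Hochberg) numbered 4, and 0 at a mean of at least 200 (fewer genes tested), 10 by DESeq2, 4 by edgeR and 0 to 48 with 1 library left out. At an unadjusted p under 0.05 there were 439, 229 at a mean of at least 200 and 216 to 2340 with 1 library left out. The other BMP pathway genes called at that p numbered 2, 1 at a mean of at least 200, 1 without a trend and 0 to 14 with 1 library left out: 14 without *Gfi1*+/+ replicate 3 (2340 among all genes), 4 without *Gfi1*+/+ replicate 2 (547) or *Gfi1*cre/+ replicate 1 (313), 2 without *Gfi1*+/+ replicate 1 (303), 1 without *Gfi1*cre/+ replicate 2 (216) and 0 without *Gfi1*cre/+ replicate 3 (248). *Grem1* missed that p without *Gfi1*cre/+ replicate 3 (log2 difference 0.56), and *Gata3* missed it without a trend and without *Gfi1*+/+ replicate 1, *Gfi1*+/+ replicate 2, *Gfi1*cre/+ replicate 2 or *Gfi1*cre/+ replicate 3. The split of 147 higher and 292 lower became 205 and 230 under quantile normalization. The cause was not tested.

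With the replicate number as a block, 4 genes had an adjusted p under 0.05 and 462 an unadjusted p under 0.05, 3 of them other BMP pathway genes, and *Kcp* was at -0.36. For same-numbered libraries of the genotypes, the correlations of their deviations from the genotype mean were -0.09, 0.11 and -0.03. No label says whether these libraries share more than a number, and the correlations cannot decide it. About 361 to 402 reads on *Kcp* per library and 3 libraries per genotype limit the precision.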
